A study of Mus musculus with 2 samples.

Results

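Cd209a-expressing dendritic cells were described in a pooled suspension of mouse heart cells taken 7 days after pressure overload. They were picked barcode by barcode from raw counts of UMIs, the molecular barcodes that let each captured transcript be counted once. A barcode was a member when it held at least 2 Cd209a UMIs, at least 50 Cd74 UMIs and fewer than 10 UMIs summed over C1qa, C1qb and C1qc. It also had to hold 0 UMIs of the B cell gene Cd79a, the fibroblast gene Pdgfra, the endothelial gene Cdh5 and the T cell genes Cd3e, Cd3d and Cd3g. This gave 99 members among 9369 barcodes, a share of 1.06% (95% Clopper-Pearson interval 0.860 to 1.28%). The share describes a sorted and digested suspension, not the tissue. They are called Cd209a cells below.

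Conventional dendritic cells take up antigen in tissues, load its peptides on MHC class II molecules and present them to T cells. Their development depends on the receptor Flt3, and on activation many of them use the chemokine receptor Ccr7 to travel along lymphatic vessels to lymph nodes. In the heart they lie among far more numerous macrophages and among monocytes, with which they share class II and many innate genes. The type 2 branch is commonly marked by C-type lectins such as Cd209a and Clec10a, and the type 1 branch by Xcr1 and Clec9a.

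The series concerns lymphatic-derived neurotensin in hearts damaged by pressure overload. Non-cardiomyocytes came from 3 control mice and 4 Nts KO mice, all of which had undergone TAC (transverse aortic constriction, in which the aorta is tied narrower so that the left ventricle pumps against raised pressure). Yet both libraries are entered under genotype as WT, aged 6 to 8 weeks, which conflicts with a pool that also holds Nts KO mice. The labels used here name no strain, no sex and no Cre driver for the knockout. Calcein-stained, DAPI-negative cells from hashtagged mice were sorted into 1 tube and loaded on a droplet 3′ kit aiming at 10000 cells. Nothing used here ties a barcode to a mouse, so control and knockout were not compared and every value is an average over the pool in unknown proportions. The series holds no unoperated heart. There is 1 library and no replicate, so no significance test was run. All intervals are 95% exact intervals that cover counting error only, and cells were not treated as replicates.

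The whole library held 69993559 UMIs, with 2567 to 42567 per barcode and a median of 6663. The 99 Cd209a cells held 720017 UMIs, with 2948 to 14057 per cell, a median of 6851, a median of 2129 detected genes and a median of 0.413% mitochondrial UMIs. They were set against 1227 class II macrophages and 162 classical monocytes. The macrophages had a C1q sum of at least 10, at least 50 Cd74 UMIs and none of the excluded lineage genes, with a median of 5558 UMIs. The classical monocytes had at least 3 UMIs of Ly6c2 plus Chil3, at least 10 of Lyz2 and at least 1 of Csf1r, with a median of 5649 UMIs. They also had to hold fewer than 2 Cd209a UMIs. Further limits were set on the C1q, S100a8, S100a9, Siglech and lineage genes, and no limit on Cd74. A smaller set of 80 non-classical monocytes, gated on Ace and Spn and also on fewer than 2 Cd209a UMIs, carried fibroblast transcripts. All 13 fibroblast and mural genes with enough UMIs for comparison were lower in Cd209a cells, beside 18.2% of all genes compared there. The summed level of the list was 19407 CPM in the set against 2057 in Cd209a cells. The part of these transcripts in the values of the set was not tested, so the set is cited sparingly. No barcode belonged to more than a single one of these 4 groups.

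Levels are given as CPM, the UMIs of a gene per 1000000 UMIs of the group. A gene was called higher or lower when it had at least 20 UMIs over both groups, a ratio of at least 2 and an interval that excluded 1. Where a group held 0 UMIs, the ratio was bounded with 3 counts in its place. Over all genes compared, 4.93% were higher and 9.50% lower in Cd209a cells than in macrophages, and 5.90% were higher and 11.2% lower than in classical monocytes, and the counts of each list are to be read against these shares. Genes used to gate either side are described only, since the gate fixed their direction.

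The gate values themselves were as follows. Cd209a (ENSMUSG00000031494, chr8:3743397-3748984, minus strand, GRCm38), a C-type lectin related to DC-SIGN, ranged from 2 to 56 UMIs per member with a median of 12. Its summed level was 1946 CPM, beside 25.2 in macrophages, 3.13 in classical monocytes and 0 in non-classical monocytes. The low levels in both monocyte groups were set by their gates, which kept Cd209a below 2 UMIs per barcode. Cd74, the class II invariant chain, ranged from 85 to 978 UMIs with a median of 431. Most members lay well inside the limits: 78 had 5 or more Cd209a UMIs and 21 had 2 to 4. Just outside, 9 barcodes with 1 Cd209a UMI met every other criterion, and their Napsa level of 1209 CPM and H2-Oa level of 336 CPM lay beside 1002 and 167 CPM in the members with 2 to 4. Their Clec10a level went the other way, at 16.8 CPM beside 734. On the Cd74 side, 1 member had 50 to 99 UMIs and 3 otherwise fitting barcodes had 25 to 49. On the C1q side, 2 members had a sum of 5 to 9 and 3 otherwise fitting barcodes had 10 to 19. A C1q sum of 10 or more left out 21 barcodes, and a lineage gene left out another 22.

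**Figure D1:**
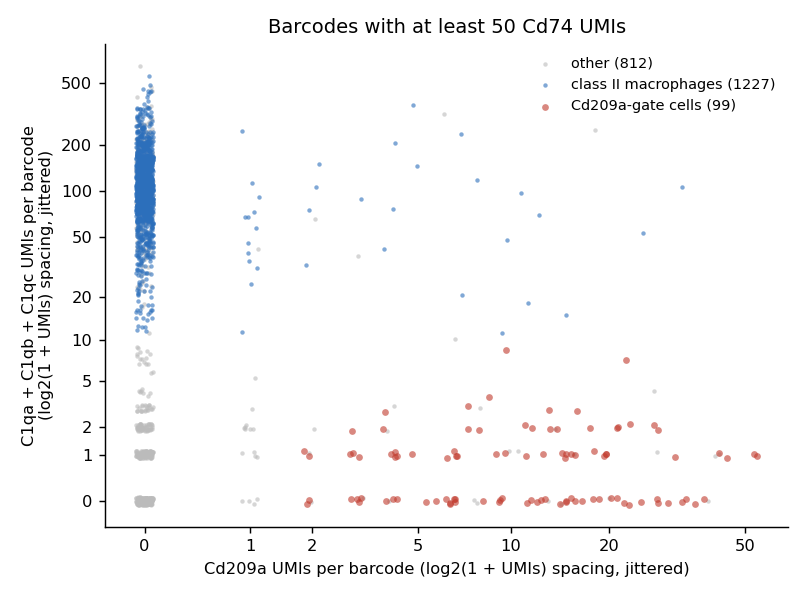
Each point is a barcode with at least 50 Cd74 UMIs, placed by its Cd209a UMIs and its summed C1qa, C1qb and C1qc UMIs (both axes in UMIs per barcode, as labelled). The 99 Cd209a cells, the 1227 class II macrophages and the other barcodes are coloured separately, and the picture shows the limits that chose the members, not a result.

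The label was checked against the markers that the gate did not use. Of Clec10a, Napsa, H2-Oa, Flt3 and Ccl17, at least 2 were detected in 92 of the 99 Cd209a cells (92.9%, 86.0 to 97.1%), at least 3 in 59 (59.6%, 49.3 to 69.3%) and at least 4 in 22 (22.2%). No member held all 5. In class II macrophages at least 2 were detected in 8.07% and at least 3 in 1.71%, and in classical monocytes in 23.5% and 1.23%. The pan-dendritic list of 16 measurable genes had 15 with enough UMIs for comparison with macrophages, and 15 of the 15 were higher in Cd209a cells, beside 4.93% of the 11405 genes compared. Their median log2 ratio was 3.03, beside -0.18 over all genes compared. Against classical monocytes 9 of 14 were higher and 0 lower, beside 5.90% higher among 6694 genes, with a median log2 ratio of 2.70 beside -0.14. The type 1 genes Xcr1 and Itgae were at 0 UMIs, which allows up to 4.17 CPM. Clec9a was found as 1 UMI in each of 3 members. Of 11 type 1 genes compared with macrophages, 2 were higher and 5 lower, beside 4.93 and 9.50% of all genes. Against classical monocytes 2 of 8 were higher and 1 lower, beside 5.90 and 11.2%. The higher genes in both comparisons were Cd24a and Wdfy4. Their log2 ratios were 3.20 and 1.19 to macrophages and 1.94 and 1.32 to monocytes. These measurements do not go against the label of a conventional dendritic cell, while the calls of the type 1 list were mixed. The pan-dendritic list holds the markers Flt3, Napsa and H2-Oa, so its counts overlap with the marker check. The lists were drawn up with earlier results of these data known, so their counts are a description and not independent support.

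Clec10a (chr11:70156197-70170834, plus strand), a lectin that binds galactose-type sugars, was found in 74 members, with a lowest, median and highest count of 0, 3 and 32 UMIs. Its level was 733 CPM (672 to 799), which was 9.08 times the macrophage level of 80.8 (8.07 to 10.2) and 18.5 times the classical monocyte level of 39.7 (13.3 to 26.4). Reads of Clec10a and its near copy Mgl2 may be split unevenly by counting. Napsa (chr7:44572380-44586862, plus strand), an aspartic protease, was found in 96 members with a median of 7 and at most 34 UMIs. At 1078 CPM it was 12.2 times the macrophage level of 88.0 (11 to 13.6). Classical monocytes held 748 CPM, a ratio of 1.44 (1.30 to 1.60) that did not reach the 2-fold limit. By this limit Napsa separated Cd209a cells from macrophages in this library but not from monocytes. Flt3 was sparse, with at most 2 UMIs in any member and 33 members positive. Its 58.3 CPM (42.0 to 78.8) were 23.8 times the macrophage level of 2.45 (13.5 to 43.3) and 6.99 times the monocyte level of 8.35 (3.24 to 17.2).

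Other genes of the pan-dendritic list were detected in fewer members. Zbtb46, a transcription factor of conventional dendritic cells, was seen as 1 UMI in each of 10 members, and its ratio to macrophages was 8.96 (3.47 to 22.6). Bcl11a, a transcription factor needed for dendritic cell development, was found in 22 members at 45.8 CPM, 16.1 times the macrophage level (9.12 to 29.0) and 2.93 times the monocyte level (1.55 to 5.80). Kmo, an enzyme of tryptophan breakdown, was at 54.2 CPM beside 5.81 in macrophages and 7.31 in monocytes. Dpp4 (CD26), a cell-surface peptidase, was at 50 CPM beside 4.65 and 6.26, ratios of 10.7 and 7.98. Itgax (CD11c), the integrin chain long used to mark dendritic cells, was found in 50 members at 139 CPM. This was 5.05 times the macrophage level of 27.5 (3.94 to 6.43). Classical monocytes held 1 Itgax UMI in all, which gave a ratio of 133 with an interval from 23.3 to 5308.

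Of the 14 type 2 genes compared with macrophages, 7 were higher and 1, the inhibitory lectin Clec12a, was lower, beside 4.93 and 9.50% of all genes. Against classical monocytes 9 of 13 were higher and 0 lower, beside 5.90 and 11.2%. Cd209d, a paralogue that shares sequence with Cd209a, was at 83.3 CPM beside 2.33 in macrophages and 0 in monocytes. Il1r2, the decoy receptor for interleukin 1, was found in 54 members at 401 CPM, 8.58 times the macrophage level (7.33 to 10.0) and 8.55 times the monocyte level (6.23 to 12.0). Tnip3, an inhibitor of NF-kappaB signalling, was at 381 CPM, 4.13 and 7.60 times the same groups. Mgl2 (CD301b), a lectin of dermal and tissue dendritic cells and of some macrophages, was found in 49 members with up to 42 UMIs. At 889 CPM it was 1.48 times the macrophage level of 602 (1.36 to 1.60), short of the call, and 122 times the monocyte level of 7.31 (58.7 to 304). Irf4, the factor associated with type 2 dendritic cells, was almost undetected, with 8 UMIs in 6 members (11.1 CPM, 4.80 to 21.9). Sirpa and Itgam, surface proteins of type 2 cells, were at 112 and 133 CPM and were called in neither comparison.

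**Figure D2:**
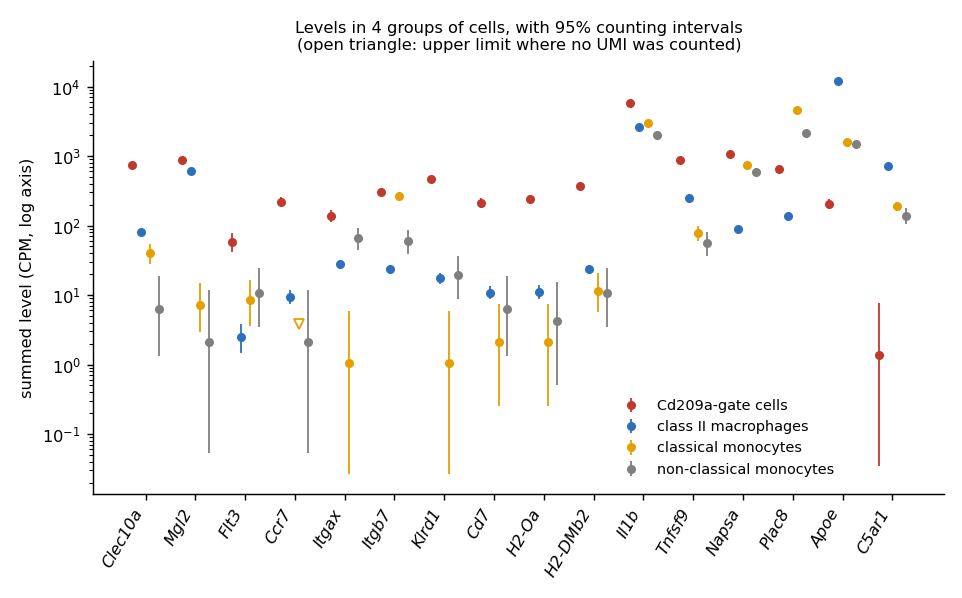
Summed levels of 16 genes in the 4 groups of cells, in CPM on a log axis, with 95% counting intervals as bars and an open triangle at the upper limit where a group held 0 UMIs. Clec10a, H2-Oa and Klrd1 stand highest in Cd209a cells, Napsa stands close to both monocyte groups, and Apoe and C5ar1 stand far below the macrophages.

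Ccl17 (chr8:94810453-94812036, plus strand), a chemokine that attracts cells bearing Ccr4, was named among the markers but was confined to a few members. It was detected in 14 of the 99, with 10 or more UMIs in 5, and the highest member held 164 of the 299 UMIs (54.8%). The level was 415 CPM beside 5.30 in macrophages. The ratio was 78.4 (56.4 to 111), and this ratio fell to 35.9 when that member was left out. Classical monocytes had 0 UMIs, which makes the level at least 133-fold higher than theirs. Ccl22, the other ligand of Ccr4, was found in 7 members and 1 of them held 13 of the 29 UMIs. Its ratio to macrophages was 14.8 (8.18 to 27.4), or 8.26 without the highest cell.

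Class II genes were detected throughout the Cd209a cells and were shared with macrophages. Against macrophages 4 of 13 compared genes of the presentation list were higher, beside 4.93% of all genes, and 1 was lower, close to the 9.50% over all genes. Against classical monocytes 9 of 13 were higher and 0 lower, beside 5.90 and 11.2%. Because Cd74 was a gate gene for members and macrophages and was left free in monocytes, the difference from monocytes is partly set by the gates. The chains of the classical class II molecules, H2-Aa, H2-Ab1 and H2-Eb1, were found in all 99 members. H2-Aa ranged from 4 to 277 UMIs per member with a median of 142, and its 19001 CPM were 1.60 times the macrophage level of 11912 (1.57 to 1.62). H2-Ab1 had a median of 62 UMIs and a ratio of 1.49 (1.45 to 1.53), and H2-Eb1 a median of 107 and a ratio of 1.39 (1.36 to 1.42). None of the 3 chains reached 2-fold over macrophages, while their ratios to classical monocytes were 11.4, 11.8 and 14.8. These depended on the monocyte gate. With monocytes limited to fewer than 50 Cd74 UMIs, the log2 ratios rose from 3.51, 3.55 and 3.89 to 7.14, 6.89 and 7.69. At least 20 H2-Eb1 UMIs were held by 13 of the 162 classical monocytes.

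Among the genes of the class II locus, 3 that encode chains of the chaperones editing the bound peptide, H2-Oa, H2-Ob and H2-DMb2, were called higher than in class II macrophages. H2-DM helps class II molecules exchange peptides, and H2-O restrains H2-DM. H2-Oa, a chain of H2-O, was found in 53 members with a lowest, median and highest count of 0, 1 and 16. Its 240.3 CPM (206 to 279) were 21.6 times the macrophage level of 11.1 (16.6 to 28.3). Classical monocytes held 2 H2-Oa UMIs in all, a ratio of 115 (31.4 to 958). H2-Ob, the partner chain, was found in 40 members at 101 CPM, 7.20 times the macrophage level of 14.1 (5.28 to 9.77). H2-DMb2, a beta chain of H2-DM, was found in 55 members with up to 15 UMIs, and its 374 CPM were 15.9 times the macrophage level of 23.5 (13.1 to 19.3) and 32.5 times the monocyte level of 11.5 (17.9 to 66.0). H2-DMb1, the other beta chain, was found in 97 members but its ratio to macrophages was 1.59 (1.48 to 1.70), and that of the alpha chain H2-DMa was 1.73 (1.61 to 1.87). The pair of beta chains is nearly identical in sequence, so reads may be shared between them. Within the locus, H2-O and H2-DMb2 thus differed from macrophages several-fold more than H2-Aa, H2-Ab1, H2-Eb1, H2-DMa and H2-DMb1 did.

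The proximal promoters of these genes are shown because the class II genes are known to be switched on together through shared X and Y box elements, whereas the levels above split them. Sequences are RefSeq promoters of GRCm38.p6, taken from 150 to 21 bases before the annotated start, on chromosome 17. Capitals mark ATTGG, the letters of the Y box, and ATGATG, a run upstream of it that was picked after the sequences had been seen, both on the printed strand. The first 3 lines are genes that stood 7.20 to 21.6 times above macrophages, and the other 3 are among the genes that stayed below 2-fold.
H2-Oa: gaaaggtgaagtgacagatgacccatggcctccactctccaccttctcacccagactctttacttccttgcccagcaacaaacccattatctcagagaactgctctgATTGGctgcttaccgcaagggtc
H2-Ob: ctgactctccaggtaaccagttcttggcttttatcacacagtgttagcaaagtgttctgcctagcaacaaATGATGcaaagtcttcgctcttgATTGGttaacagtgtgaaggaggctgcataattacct
H2-DMb2: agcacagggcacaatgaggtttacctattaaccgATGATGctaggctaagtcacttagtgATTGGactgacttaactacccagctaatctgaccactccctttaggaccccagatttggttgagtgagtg
H2-DMb1: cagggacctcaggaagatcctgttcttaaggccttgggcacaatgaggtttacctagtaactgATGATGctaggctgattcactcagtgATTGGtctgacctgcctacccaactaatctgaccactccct
H2-Aa: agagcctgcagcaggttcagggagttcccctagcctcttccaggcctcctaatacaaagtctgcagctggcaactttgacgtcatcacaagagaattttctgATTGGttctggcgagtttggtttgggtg
H2-Eb1: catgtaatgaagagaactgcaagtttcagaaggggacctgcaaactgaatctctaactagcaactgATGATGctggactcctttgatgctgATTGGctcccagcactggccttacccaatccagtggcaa

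The windows are chr17:34092229-34092358 on the plus strand for H2-Oa, chr17:34238755-34238884 on the plus strand for H2-Ob and chr17:34145099-34145228 on the plus strand for H2-DMb2. Those of the other genes are chr17:34153041-34153170 on the plus strand for H2-DMb1, chr17:34287844-34287973 on the minus strand for H2-Aa and chr17:34305717-34305846 on the plus strand for H2-Eb1. ATTGG was found in the 6 windows shown, starting 43 to 90 bases before the annotated start. H2-DMa, which also stayed below 2-fold, has 2 promoters in the table, and in the same span neither holds either run, although 1 of them holds ATTGG starting 198 bases before the start. Searched on both strands, these letters occur in 12289 of all 32851 promoters of the table, which run from 250 bases before to 50 after the start (37.4%). ATGATG was found upstream of ATTGG in H2-Ob, H2-DMb2, H2-DMb1 and H2-Eb1, with 17, 20, 20 and 19 bases between the 2 runs, and occurs on either strand in 3668 of all promoters (11.2%). Neither run divided the genes as their levels did: H2-Oa lacked the second run and stood 21.6 times above macrophages, and H2-Aa lacked it and stood 1.60 times above them. A match is a description of the letters, not of a bound factor. Of 8 class II genes looked up, 7 were matched, and H2-Ab1 was not.

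Other steps of presentation split in the same comparison. Ifi30, a thiol reductase that opens disulfide bonds of antigens in lysosomes, was found in all 99 members and was 3.36 times the macrophage level (3.19 to 3.53). Lgmn, a lysosomal protease, was 4.82 times lower than in macrophages (4.16 to 5.62). Ctss, the protease that trims the invariant chain, was at 1986 CPM beside 2611 and 2711 and was not called in either comparison. Ciita, the master activator of class II genes, was at 55.6 CPM beside 47.9 in macrophages, a ratio of 1.16 (0.815 to 1.61), and 7.31 in monocytes, a ratio of 7.60 (3.37 to 20.1). Of 17 class I presentation genes, 0 were called in either direction against macrophages, beside 14.4% of all genes. Class I genes were called higher against monocytes in 2 of 16 cases, beside 5.90% of all genes, namely H2-Q6 and H2-Q7, a pair of near-identical genes, and H2-Q7 at a ratio of 2.02 lost the call under 7 of 17 alternatives.

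Costimulatory and checkpoint genes were called in both directions. Against macrophages 3 of 18 compared genes were higher and 2 lower, beside 4.93 and 9.50% of all genes, and against monocytes 5 of 15 were higher and 3 lower, beside 5.90 and 11.2%. Tnfsf9 (4-1BB ligand), which costimulates T cells, was found in 67 members with a median of 2 and at most 73 UMIs. At 865 CPM it was 3.44 times the macrophage level of 252 (3.14 to 3.77) and 11.2 times the monocyte level of 77.2 (8.79 to 14.5). Cd83, a surface protein that stabilises class II on the membrane, was at 1274 CPM in both Cd209a cells and macrophages, a ratio of 1.00 (0.933 to 1.07), and was 4.34 times the monocyte level (3.79 to 4.98). Cd86 was at 137 CPM beside 251 in macrophages, Cd80 at 50 beside 25.1 and Cd40 at 50 beside 46.3, and none of the 3 was called.

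Il1b (chr2:129364570-129371139, minus strand), the inflammatory cytokine interleukin 1 beta, was found in 89 members with a lowest, median and highest count of 0, 31 and 208 UMIs. Its 5823 CPM (5649 to 6002) were 2.25 times the macrophage level of 2586 (2.18 to 2.33). Against classical monocytes, with 2952 CPM, the ratio of 1.97 (1.88 to 2.07) fell just short of the call. After every cell was thinned to 2000 UMIs, Il1b was detected in 81.8% of Cd209a cells, 59.1% of macrophages and 71.6% of monocytes, beside 4.56% of fibroblast-gate cells and 11.7% of T-cell-gate cells, whose unthinned depths had medians of 8235 and 4255.5 UMIs. Without thinning the shares of Il1b-positive cells were 89.9, 69.4, 84.0, 14.7 and 19.6% in the same order. Among cytokines and mediators as a list, however, 2 of 21 were higher and 11 lower than in macrophages, beside 4.93% higher and 9.50% lower among all genes. Ltb, the membrane-bound lymphotoxin beta, was the other higher gene, at 50 CPM beside 8.01. With macrophages that carry lineage genes admitted, the log2 ratio of Ltb fell from 2.50 to 1.18. Tnf was 3.95 times lower than in macrophages (3.06 to 5.18). Il10 had 0 UMIs, which makes it at least 8.00-fold lower than in macrophages, and Il12b, a subunit of interleukins 12 and 23, had 0 UMIs in the members, which allows up to 4.17 CPM.

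Most chemokine ligands were lower than in macrophages. Of 21 ligands compared with macrophages, 15 were lower and 2, Ccl17 and Ccl22, were higher, beside 9.50 and 4.93% of all genes. The median log2 ratio of the ligands was -2.44, beside -0.18 over all genes. Pf4, a platelet and macrophage chemokine, was 118 times lower (67.3 to 228), with at most 1 UMI in any member. Ccl12, a ligand of Ccr2, was 65.9 times lower (28.2 to 203). Cxcl2, a neutrophil attractant, was found in 37 members with up to 98 UMIs, and its 424 CPM were 13.3 times below the macrophage level of 5650.1 (11.9 to 15.0). Ccl4, an inflammatory chemokine, was not called, at 1618 beside 1953 CPM. Against classical monocytes the ligands were mixed, with 6 of 16 higher and 5 lower, beside 5.90 and 11.2% of all genes. Cxcl16, a membrane-bound chemokine, was 5.36 times the monocyte level (3.75 to 7.82) while being 2.40 times below that of macrophages (2.05 to 2.84).

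Among chemokine and guidance receptors, 2 of 17 were higher and 4 lower than in macrophages, beside 4.93 and 9.50% of all genes. Against monocytes 4 of 12 were higher, beside 5.90%, and 2 were lower, close to the 11.2% over all genes. Ccr7 (chr11:99144196-99155077, minus strand) was found in 23 members, with 10 or more UMIs in 9 and at most 27. Its 221 CPM (188 to 258) were 23.4 times the macrophage level of 9.43 (17.6 to 31.3), and with 0 UMIs in monocytes the level was at least 70.5-fold higher than theirs. Ccr7 is also a T cell gene, and with macrophages that carry lineage genes admitted its log2 ratio fell from 4.41 to 2.31. Fscn1, the actin bundler that accompanies Ccr7 in migratory dendritic cells, was found in 3 members, of which 0 carried Ccr7. Of the mature or migratory list, which holds Ccr7, Ccl22 and Fscn1, 5 of 12 genes were higher and 1 lower than in macrophages, beside 4.93 and 9.50%. The same list had 4 of 7 higher and 0 lower against monocytes, beside 5.90 and 11.2%. P2ry10, a lysophosphatidylserine receptor, was found in 38 members at 101 CPM, 19.6 times the macrophage level (13.2 to 29.6). Ccr2, the receptor that draws monocytes into tissue, was found in 77 members, and its 387 CPM lay between 292 in macrophages and 739 in monocytes without a call on either side. Cx3cr1, the fractalkine receptor of macrophages and patrolling monocytes, was 6.21 times below the macrophage level (4.19 to 9.62).

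**Figure D3:**
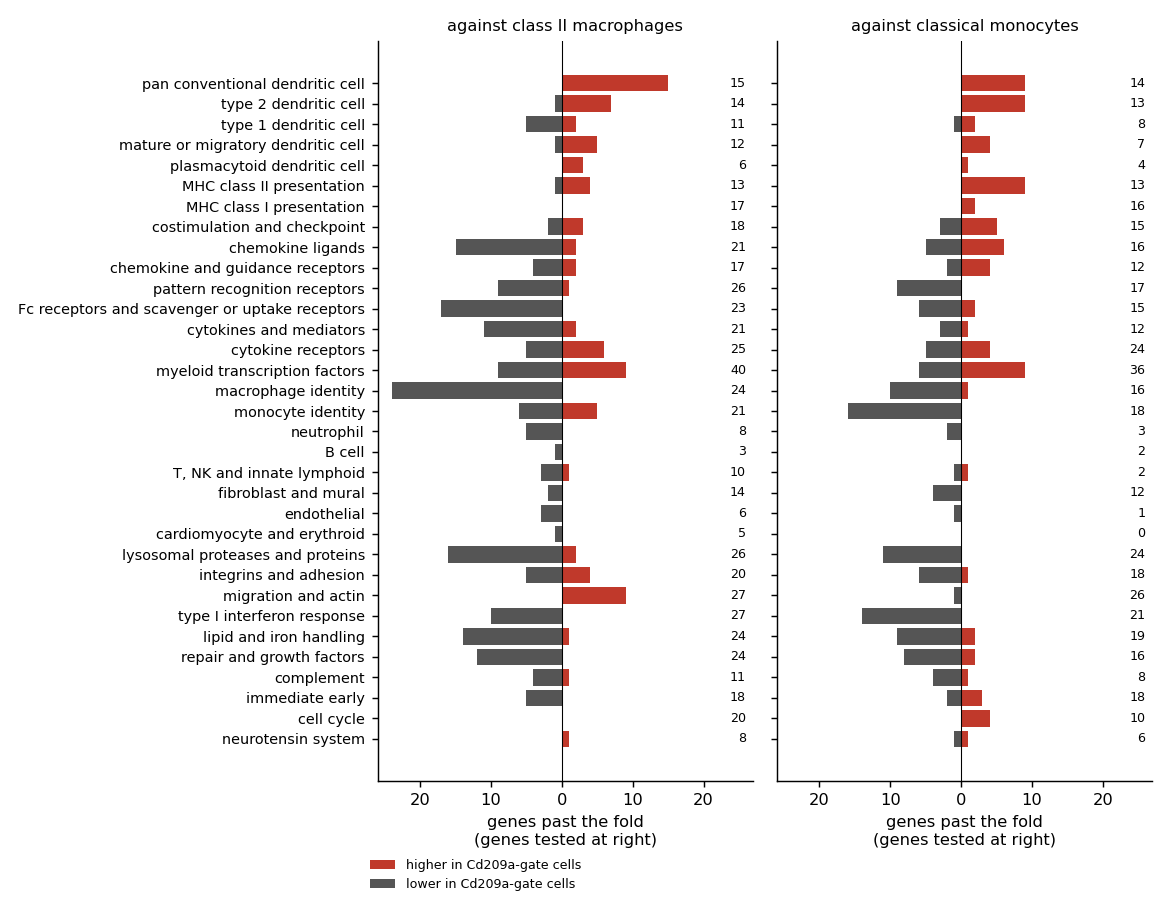
Number of genes of each list called higher (to the right) or lower (to the left) in Cd209a cells against class II macrophages and against classical monocytes. The pan-dendritic list has 15 higher genes in the first comparison and 9 in the second, and macrophage identity genes have 24 and 10 lower ones.

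The macrophage programme was low throughout. All 24 compared genes of the macrophage identity list were lower than in macrophages, beside 9.50% of all genes, with a median log2 ratio of -4.28 beside -0.18. Apoe, the lipid carrier made in bulk by macrophages, was at 206 CPM beside 12099.8, or 58.9 times lower (50.1 to 69.6). Maf, a transcription factor of macrophages, had 2 UMIs in all members, 152 times below macrophages with an interval from 42.2 to 1259.5. C5ar1, a complement receptor, had 1 UMI, beside 713 CPM in macrophages and 188 in monocytes. The C1q genes were gated, and the gate fixed their direction. Because the C1q genes split the members from the macrophages, the difference in the other macrophage genes is partly set by the gates. Of Fc, scavenger and other uptake receptors, 17 of 23 were lower than in macrophages and 0 higher, beside 9.50 and 4.93% of all genes. Msr1, a scavenger receptor for modified lipoproteins, had 0 UMIs, at least 17.6-fold below macrophages and 25.6-fold below monocytes. Fcgr1 and Fcgr3, receptors for antibody, were 4.27 and 4.43 times below macrophages. Mrc1, the mannose receptor, was 4.26 times below macrophages (3.39 to 5.42) but 5.32 times above monocytes (3.19 to 9.32). Its log2 ratio to monocytes rose from 2.35 to 4.89 where these were limited to fewer than 50 Cd74 UMIs.

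Monocyte identity genes were mostly lower than in classical monocytes and were called in both directions against macrophages. Of 18 compared monocyte identity genes outside the gate, 16 were lower than in classical monocytes and 0 higher, beside 5.90% higher and 11.2% lower among all genes, with a median log2 ratio of -2.84 beside -0.14. Hp (haptoglobin) was 137 times lower (66.1 to 340.4). Plac8, a small protein abundant in monocytes, was found in 48 members with up to 41 UMIs. Its 657 CPM were 6.88 times below the monocyte level of 4522 (6.26 to 7.58) and 4.84 times above the macrophage level of 136 (4.34 to 5.40). Ifitm6, an interferon-induced membrane protein, was likewise 6.27 times above macrophages (5.09 to 7.69). Lyz2 (lysozyme), a gate gene for the monocytes, was at 2017 CPM beside 10743 in macrophages and 22181 in monocytes, and ranged from 0 to 165 UMIs per member with a median of 3. Against macrophages 5 of 21 monocyte identity genes were higher and 6 lower, beside 4.93 and 9.50% of all genes.

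Calls among innate sensing and interferon genes were mostly downward, as they were over all genes, of which 9.50% were below macrophages and 11.2% below monocytes. Of the pattern recognition receptors, 9 of 26 were below macrophages and 9 of 17 below monocytes, and 1 and 0 were higher, beside 4.93 and 5.90% of all genes. Clec4e (Mincle), a receptor for mycobacterial and damaged-cell lipids, was 13.4 times below monocytes (9.22 to 20.2). Tlr4, the endotoxin receptor, had 1 UMI in all members. Of type I interferon response genes, 10 of 27 were below macrophages and 14 of 21 below monocytes, with 0 higher in either comparison and median log2 ratios of -0.96 and -1.46, beside -0.18 and -0.14 over all genes. Rsad2 (viperin) was 10.9 and 8.77 times lower. The complement gene Cfp (properdin), which stabilises the alternative pathway, went the other way, found in 87 members at 2.65 times the macrophage level (2.36 to 2.98) and 2.76 times the monocyte level (2.30 to 3.33).

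Of the myeloid transcription factors, 9 of 40 were higher and 9 lower than in macrophages, beside 4.93 and 9.50% of all genes, and 9 of 36 were higher and 6 lower than in monocytes, beside 5.90 and 11.2%. Rel and Nfkb1, subunits of NF-kappaB, were 2.35 and 2.24 times the macrophage level and 2.45 and 2.46 times the monocyte level, and the lowest interval bound of the 4 ratios was 1.94. Bhlhe40, a factor that supports inflammatory cytokine output, was found in 73 members at 359.7 CPM, 7.00 times macrophages (5.96 to 8.20) and 5.74 times monocytes (4.32 to 7.74). Stat4, which transmits interleukin 12 signals, was 6.13 and 6.41 times higher. Nr4a3, an orphan nuclear receptor linked to dendritic cell migration, was 4.15 and 3.55 times higher. Irf8, which drives the type 1 and plasmacytoid branches, was 2.09 times below macrophages (1.61 to 2.77), and 1 member held 19 of its 59 UMIs. Irf8 lost this call under 5 of 17 alternatives, and its log2 ratio went from -1.06 to -2.24 without the members that held Siglech, among them that cell. Cebpb, a factor of monocytes and macrophages, was 2.56 times below macrophages and 5.32 times below monocytes. Spi1 (PU.1), shared by all myeloid cells, was called in neither comparison, at 478 CPM beside 527 and 643.

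Some genes of movement were higher than in macrophages. Of 27 genes of migration and actin, 9 were higher and 0 lower than in macrophages, beside 4.93 and 9.50% of all genes. Against monocytes 0 of 26 were higher and 1 lower, and with 5.90 and 11.2% of all genes called a list of this size would hold few calls. S100a4, a calcium-binding protein of motile cells, was found in 93 members at 3.98 times the macrophage level (3.70 to 4.27), and its ratio to monocytes was 0.858 (0.793 to 0.928). S100a11 was 3.65 and Lsp1, a leukocyte actin-binding protein, 2.74 times the macrophage level, both with ratios to monocytes of 1.42. Itgb7, the integrin chain that pairs with the alpha 4 and alpha E chains, was found in 75 members at 12.7 times the macrophage level (10.4 to 15.6) and 1.13 times the monocyte level (0.940 to 1.36). Its list of integrins and adhesion went both ways. There 4 of 20 genes were higher and 5 lower than in macrophages, beside 4.93 and 9.50% of all genes. Against monocytes 1 of 18 was higher and 6 lower, beside 5.90 and 11.2%. Lipid and iron genes were mostly lower than in macrophages, with 14 of 24 lower and 1 higher, beside 9.50 and 4.93% of all genes. Pltp, the phospholipid transfer protein, was 6.87 times above monocytes (5.21 to 9.19) and was not called against macrophages.

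Over all genes, several genes best known from lymphocytes were among those with the largest ratios to macrophages. Klrd1 (CD94, chr6:129591782-129598775, plus strand), an NK cell receptor chain, was found in 64 members with a median of 2 and at most 18 UMIs, at 461 CPM (413 to 513). This was 26.4 times the macrophage level of 17.4 (21.6 to 32.5), and classical monocytes held 1 Klrd1 UMI in all, a ratio of 442 with an interval from 78.7 to 17501. After thinning to 2000 UMIs, Klrd1 was detected in 42.4% of Cd209a cells (32.5 to 52.8%), 26.3% of T-cell-gate cells, 2.12% of macrophages and 0.276% of fibroblast-gate cells. Before thinning these shares of Klrd1-positive cells were 64.6, 39.6, 4.07 and 1.24%. Gpr171, a receptor of T cells and progenitors, was found in 55 members and was 23.1 times the macrophage level (17.2 to 31.1). Cd7, a T and NK cell surface protein, was found in 35 members at 19.5 times (14.8 to 25.7), and Klrb1b, an inhibitory NK receptor, in 62 members at 14.7 times (11.4 to 19.1). The NK granule genes Nkg7 and Gzma were lower than in macrophages, at 4.17 beside 22.4 CPM and 6.94 beside 75.6 CPM. Of the T, NK and innate lymphoid list, 1 of 10 compared genes, Il7r, was higher and 3 were lower than in macrophages, beside 4.93 and 9.50% of all genes, and the list summed to 83.3 CPM in Cd209a cells beside 153 in macrophages. Cd3e, Cd3d and Cd3g were at 0 by the gate.

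The members were not uniform. Plac8 and Mgl2 tended to be carried by different members: Plac8 was detected in 11 of the 49 members with Mgl2 (22.4%) and in 37 of the 50 without (74%). The median depths of these members were 7509 and 6392.5 UMIs, so the Mgl2 carriers were the deeper. Spearman's rho of Plac8 with Mgl2 over the 99 members was -0.52, and -0.43 after thinning. With H2-Eb1 the rho of Plac8 was -0.49 (-0.51 thinned), and with the monocyte gene Ly6c2, found in 18 members, it was 0.55 (0.40 thinned). A second grouping joined H2-Oa and H2-DMb2, since H2-DMb2 was detected in 40 of the 53 members with H2-Oa (75.5%) and in 15 of the 46 without (32.6%). The rho of H2-Oa was 0.48 with H2-DMb2 (0.42 thinned) and -0.49 with Lyz2 (-0.33 thinned). The rho of H2-Ob was 0.41 with H2-Oa (-0.004 thinned) and 0.43 with H2-DMb2 (0.18 thinned). The unthinned values already used UMIs as a share of each cell's total. Thinning also leaves fewer H2-Ob UMIs, and the part of that loss in the lower values was not tested. Cd7 was detected in 28 of the 64 members with Klrd1 (43.8%) and in 7 of the 35 without (20%). Mgl2 was seen in 8 of the 35 members with Cd7 (22.9%) and in 41 of the 64 without (64.1%). Among the 741 pairs of 39 genes computed, 48 had an absolute rho of at least 0.4. All these values come from cells of 1 library that share depth and free RNA, and they are descriptions without a test.

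Ccr7 was carried by members with and without Plac8. Plac8 was seen in 47.8% of the 23 members with Ccr7 and in 48.7% of the 76 without, and Il1b in 95.7 and 88.2%. Over the 99 members the rho of Ccr7 was -0.07 with Plac8 (-0.21 thinned) and 0.24 with H2-Eb1 (0.32 thinned). The member with the most Ccr7, 27 UMIs, also held the most Ccl22, 13 UMIs, together with 32 of Ccl17, 17 of Mgl2 and 0 of Fscn1. The member with the most Ccl17 held the highest Il1b count, 208 UMIs. Il1b and Rel had a rho of 0.49 (0.39 thinned).

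**Figure D4:**
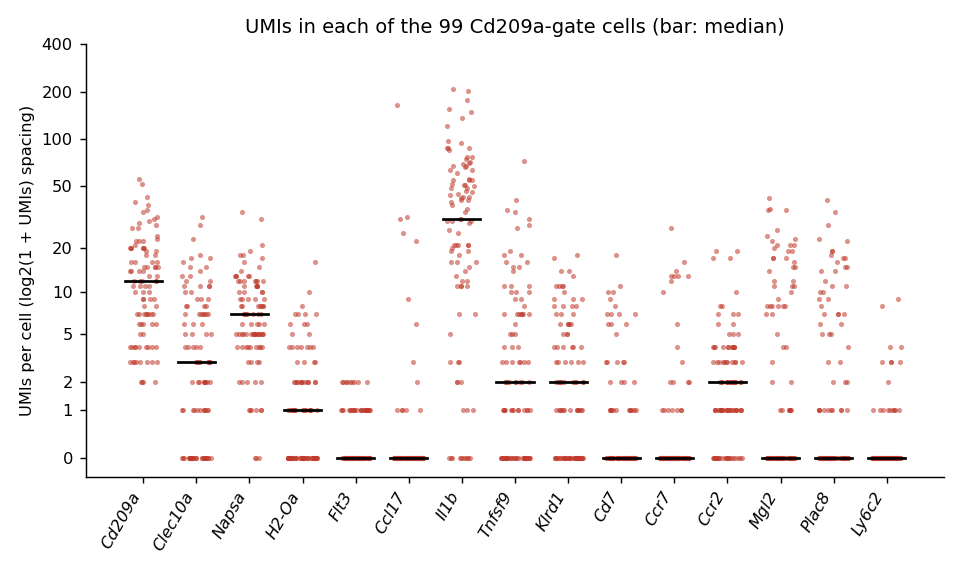
UMIs of 15 genes in each of the 99 Cd209a cells (vertical axis in UMIs per cell with log2(1 + UMIs) spacing), with every point a cell and a bar at the median. Il1b has a median of 31 with 10 members at 0, Plac8 and Mgl2 each leave about as many members at 0 as above it (51 and 50 at 0), and Ccl17 is held by 14 members with a top value of 164.

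A few members carried transcripts of other cell types. Siglech, a marker of plasmacytoid dendritic cells, was found in 3 members, and 1 of these held 16 of the 20 UMIs along with 43 of Bst2, 19 of Irf8, 9 of Ccr9, 9 of Ly6d and 7 of Klk1, 4 of Cd209a and 0 of Clec10a. Siglech was called higher than in macrophages, at 7.96 times (4.23 to 14.7), on the UMIs of these 3 members alone. Of 6 plasmacytoid genes compared with macrophages, 3 were higher and 0 lower, beside 4.93 and 9.50% of all genes. Against monocytes 1 of 4, Ly6d, was higher and 0 lower, beside 5.90 and 11.2%. The log2 ratio of Ly6d to macrophages was 3.75, and its call held without the Siglech members. With macrophages that carry lineage genes admitted, Ly6d was not called, at a log2 ratio of 0.016. Another member held 95 UMIs of Dcn, 62 of Sparc, 53 of Col3a1 and 29 of Col1a1, which are fibroblast genes, and 2 members held 10 or more of Dcn. The fibroblast and mural list summed to 2057 CPM in Cd209a cells, 1963 in macrophages and 2038 in monocytes. After thinning, Dcn was detected in 26.3% of Cd209a cells and 37.7% of macrophages, and C1qa in 5.05% of Cd209a cells, 6.39% of fibroblast-gate cells and 19.8% of T-cell-gate cells. Without thinning these shares were 74.7 and 71.6% for Dcn and 19.2, 22.0 and 31.2% for C1qa. Free RNA was not subtracted, and its part in low levels was not tested. Leaving out the 3 Siglech members or the 2 Dcn members, choices made after seeing the data, gave 539 and 541 genes higher than in macrophages, beside 562.

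H2-Ea (chr17:34341959-34344645, minus strand), the alpha chain of the class II E molecule that pairs with H2-Eb1, was present or absent cell by cell. It had 0 UMIs in 47 members, 1 to 4 in 4, none in the range 5 to 13, and 14 to 124 in 48, whose median was 52. Among the 93 members with at least 20 H2-Eb1 UMIs, 47 (50.5%, 40.0 to 61.1%) had at least 0.1 H2-Ea UMIs per H2-Eb1 UMI, 2 had fewer and 44 had 0. Of 1050 class II macrophages with as many H2-Eb1 UMIs, 399 (38.0%, 35.1 to 41.0%) reached that ratio, 39 had a lower one and 612 had 0. The median ratio of the cells above the limit was 0.404 in Cd209a cells and 0.429 in macrophages. The median of H2-Eb1 was 126 UMIs in those members and 87 in the others. The intervals of the shares overlap narrowly, and no comparison of them over mice was possible. H2-Ea is known to be silent in some inbred mouse strains. The labels name no strain, no cell was assigned to a mouse, and the cause of the split was not tested.

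**Figure D5:**
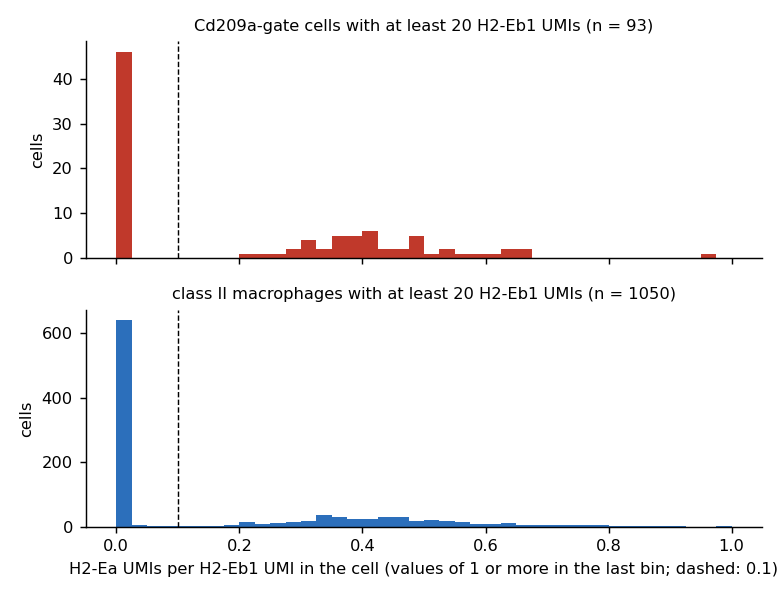
Histograms of H2-Ea UMIs per H2-Eb1 UMI in cells with at least 20 H2-Eb1 UMIs, for 93 Cd209a cells and 1050 class II macrophages. Both groups show a peak at 0 and a separate hump with medians of 0.404 and 0.429 among the cells at 0.1 or more.

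Counted over all genes, 562 of 11405 were higher (4.93%) and 1083 lower (9.50%) in Cd209a cells than in macrophages, and 395 of 6694 higher (5.90%) and 747 lower (11.2%) than in classical monocytes. The median log2 ratios of -0.18 and -0.14 shift these splits. Centred on them, 787 were higher and 826 lower than in macrophages, and 529 higher and 608 lower than in monocytes. Against the 80 non-classical monocytes 398 of 6052 genes were higher (6.58%) and 1103 lower (18.2%). Cell cycle genes were called in 0 of 20 cases against macrophages, beside 14.4% of all genes, and were higher in 4 of 10 against monocytes, led by Pclaf and Stmn1, of whose 30 and 93 UMIs 1 member held 14 and 38. Growth and repair genes were lower than in macrophages in 12 of 24 cases and higher in 0. Of the neurotensin system, Ntsr1 and Ntsr2, the neurotensin receptors, had 0 UMIs in the members, and Nts and the sorting receptor Sort1 had 2 UMIs each. Of 8 compared genes of that list, 1, Dpp4, was called against macrophages, close to the 14.4% of all genes called in either direction. Against monocytes 1 of 6, Dpp4, was higher and 1, Ace, was lower, beside 5.90 and 11.2% of all genes.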

How the data were processed

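Gene expression of 1 pooled library was deposited as whole-number UMI counts per gene and barcode, without normalization. Tools named, without versions, are STARsolo and Scanpy, and the build is mm10, per the submitters' processing notes, while the rule that called cells is not given in the sources used here. The hashtag library was not analysed here. No barcode was filtered. Scrublet in scanpy 1.11.5 called 357 of 9369 barcodes (3.81%) doublets, among them 1 member, and these were kept in the main values and removed as an alternative.

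UMIs were summed over the cells of a group and scaled to CPM with exact Poisson intervals, and ratios had exact binomial intervals. For shares of cells, each cell was thinned at random to 2000 UMIs, and 0 cells were left out. The macrophage group additionally lacked the lineage genes that members lack. Without that exclusion it held 1575 cells. Members and the 33 gene lists (594 genes, 586 found) were chosen with earlier results of these data known. Named genes were the gate genes and markers, up to 2 called genes with the largest ratio per side and list, and up to 10 per side over all genes with at least 100 UMIs in at least 20% of cells. Further genes, named for their role, were chosen after their values were seen, and some named genes are not reported here. Log2 ratios had 1 CPM added to each side. The counting of calls was tested on simulated data. Python 3.11.15, numpy 2.4.6, scipy 1.17.1, pandas 2.3.3, anndata 0.12.19 and matplotlib 3.10.9 were used.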

Additional observations from a re-analysis of the deposited data

How the results depend on the processing

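Each comparison was repeated under 17 alternatives: other limits for Cd209a, Cd74, C1q and the comparison groups, other UMI minimums, thinning to 2000 UMIs, equal weight per cell, centring, removal of doublets or of the deepest cells, and, chosen after seeing the data, leaving out members with Siglech, members with 10 or more Dcn UMIs, or the highest cell of each named gene. Of the genes named and called in the report or by the naming rule, 94 of 115 against macrophages and 99 of 108 against monocytes were called under all alternatives that gave a value, 1 and 1 reversed, and the ratio of 61 and 57 moved by over 1.5 times under some alternative.

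Genes higher than in macrophages numbered 562, and 425 with a minimum of 50 UMIs, 719 with no minimum and 423 after thinning. Genes lower than in macrophages fell from 1083 to 512 after thinning. The share of higher calls was then 45.2%, beside 34.2%. Genes higher than in classical monocytes numbered 395, and 215 with a minimum of 50 UMIs, 632 with no minimum and 203 after thinning. Genes lower than in monocytes numbered 747, and 473 with a minimum of 50 UMIs and 412 after thinning. These alternatives test other numbers of genes or fewer UMIs. Centring moved the share of higher calls from 34.2 to 48.8% against macrophages and from 34.6 to 46.5% against monocytes. With macrophages that carry lineage genes admitted, 497 genes were higher and 1542 lower than in macrophages, beside 562 and 1083. The share of higher calls was then 24.4%, beside 34.2%.

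The log2 ratio of Siglech to macrophages was 2.68, and -0.72 for members with at least 5 Cd209a UMIs and -2.17 without the 3 Siglech members, a sign fixed by that choice, which leaves 0 Siglech UMIs. The log2 ratio of Spp1 to monocytes was -5.09, -2.74 without the highest monocyte and 1.93 where monocytes needed at least 10 UMIs of Ly6c2 plus Chil3. The cause was not tested.

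Over the Cd209a cells, 0 UMIs of a gene allows up to 4.17 CPM, and 0 of 99 members allows up to 3.03% with a UMI, both taken as 3 counts. No paired analysis was possible because there is 1 pooled library and no cell is tied to a mouse.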

Other observations

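Dendritic-type barcodes also lay outside the Cd209a gate. With Xcr1 plus Clec9a at 2 or more UMIs and Cd74 at 50 or more, 37 barcodes were found, of which 0 were Cd209a cells and 2 held any Cd209a UMI. They were picked on the lectin Clec9a and the chemokine receptor Xcr1, which were at 227 and 215 CPM. Genes that did not pick them were Irf8 at 1112 CPM, Flt3 at 106 CPM, H2-Aa at 15444 CPM and Il1b at 1035 CPM.

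Barcodes with at least 2 UMIs each of Ccr7 and Ccl22 and at least 50 of Cd74 numbered 10, and 4 of them were Cd209a cells. Their Ccr7 level was 3174 CPM, fixed in part by the choice, and Fscn1, which was not used, was at 2172 CPM. None of this came from the 4 Cd209a cells, since 0 of the 23 Cd209a cells with Ccr7 held a Fscn1 UMI. Barcodes with at least 3 Siglech UMIs numbered 14, of which 2 were Cd209a cells and 6 held a Cd209a UMI. Their levels were 1745 CPM for Irf8 and 2915 CPM for Bst2, a membrane protein of plasmacytoid cells.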
